A study of Mus musculus with 4 samples.

Results

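The 9 genes described here encode factors that antigen receptor signals switch on in T cells, with their partners and 1 surface marker. They are the orphan nuclear receptor genes Nr4a1, Nr4a2 and Nr4a3, the zinc finger factor genes Egr1, Egr2 and Egr3, the EGR corepressor genes Nab1 and Nab2, and Cd69. They were taken by name, and each had a single entry among the 23284 gene symbols of the deposited tables. Polyadenylated RNA had been profiled in 4 libraries of BALB/c mouse splenic CD4 T cells stimulated in Th1 culture, with interleukin-2 at 15 ng/ml and interleukin-12 at 10 ng/ml. After a culture given as 4 days in one label and 5 days in another, the cells were sorted into CCR7loCD137hi and CCR7hiCD137lo populations, with 2 libraries of each. CCR7 is the chemokine receptor that directs lymphocytes into lymph nodes, and CD137 (Tnfrsf9) is a costimulatory molecule acquired on activation. Both populations came from the same kind of culture with the same strain and cytokines, and the labels give no genotype, age or sex of the mice and name no stimulus beside the cytokines. Nothing in the labels says whether the libraries numbered 1 and 2 came from separate mice or cultures, so p-values below reflect spread among these libraries alone, and that spread may be technical.

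As background, engagement of the T cell receptor raises calcium and activates MAP kinases, and within an hour or so the NR4A and EGR genes are transcribed. NR4A proteins are orphan receptors that activate transcription without a bound ligand, and Nr4a1 is widely used as a reporter of recent antigen receptor signals. EGR factors bind GC-rich sites, and NAB proteins dock on them and hold their activity down, with Nab2 itself an EGR target. CD69 is an early activation antigen that retains lymphocytes in tissue by pulling the sphingosine-1-phosphate receptor S1PR1 from the surface.

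The promoters of the NR4A genes are shown first because all 3 have the same short element in 4 copies, and that of Egr2 because it holds an element of another class. RefSeq windows on build GRCm38.p6 (the assembly of mm10) run from 250 bases before to 50 bases after an annotated start. Capitals mark matches to the core of the cAMP response element, TGACG, to the EGR site GCGNGGGCG, to the CArG box of serum response factor and to the NF-kB site, each on either strand, so that CGTCA is the first of these read on the other strand. The Nr4a3 window stands at a start upstream of the start of its entry in the tables, and the others stand at the start of the entry.
Nr4a1, chr15:101266596-101266895, plus strand: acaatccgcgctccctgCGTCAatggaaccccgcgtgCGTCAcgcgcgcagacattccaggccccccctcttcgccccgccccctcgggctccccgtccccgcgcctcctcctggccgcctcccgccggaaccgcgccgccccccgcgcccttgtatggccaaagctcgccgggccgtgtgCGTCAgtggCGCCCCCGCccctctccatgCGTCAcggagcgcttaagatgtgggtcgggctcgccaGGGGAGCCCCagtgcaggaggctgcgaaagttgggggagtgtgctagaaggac
Nr4a2, chr2:57123954-57124253, minus strand: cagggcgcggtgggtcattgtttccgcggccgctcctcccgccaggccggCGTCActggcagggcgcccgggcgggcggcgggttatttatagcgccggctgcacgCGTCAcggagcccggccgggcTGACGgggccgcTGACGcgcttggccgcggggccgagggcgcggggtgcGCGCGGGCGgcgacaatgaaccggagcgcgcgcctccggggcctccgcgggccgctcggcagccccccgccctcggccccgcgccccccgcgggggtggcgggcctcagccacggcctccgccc
Nr4a3, chr4:48045055-48045354, plus strand: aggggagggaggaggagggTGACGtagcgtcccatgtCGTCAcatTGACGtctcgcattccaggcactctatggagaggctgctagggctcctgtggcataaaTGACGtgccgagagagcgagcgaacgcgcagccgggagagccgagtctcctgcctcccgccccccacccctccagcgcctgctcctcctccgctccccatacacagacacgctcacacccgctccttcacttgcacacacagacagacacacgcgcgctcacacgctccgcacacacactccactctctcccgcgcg
Egr2, chr10:67537619-67537918, plus strand: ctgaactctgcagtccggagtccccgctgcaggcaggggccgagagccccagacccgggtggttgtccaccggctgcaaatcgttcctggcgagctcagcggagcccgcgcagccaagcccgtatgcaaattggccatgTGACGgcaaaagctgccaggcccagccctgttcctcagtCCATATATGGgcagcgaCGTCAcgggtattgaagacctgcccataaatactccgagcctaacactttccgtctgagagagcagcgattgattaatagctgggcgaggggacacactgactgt

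The cAMP response element core was found 4 times in the window of Nr4a1, 4 times in that of Nr4a2 and 4 times in that of Nr4a3. Of all 32851 RefSeq windows of this length, 20.8% hold at least 1 copy, 5.01% at least 2 and 0.231% at least 4. These windows are rich in G and C, at 72.3% in Nr4a1, 81.7% in Nr4a2 and 64.7% in Nr4a3 against a median of 52.7%, and among the 9690 windows with at least 60% G and C the share with at least 4 copies was 0.557%. In Nr4a1 the copies begin at positions -233, -213, -69 and -40 from the start, and an EGR site lies between the last pair, beginning at -60. Nr4a2 also holds 1 EGR site, which 5.55% of all windows and 16.6% of those with at least 60% G and C hold. Egr2 holds 1 CArG box, found in 1.63% of all windows, with 2 copies of the cAMP response element core. Nab1 holds 3 EGR sites, and Nab2 holds no match to any motif searched. The full element TGACGTCA (1.79% of all windows), the NR4A site AAAGGTCA (1.51%) and the AP-1 site TGANTCA (7.81%) were matched in none of the windows of these 6 genes, while the NFAT core GGAAA, in 61.3% of all windows, was matched in those of Nr4a2 and Egr2 and is not in capitals. The NF-kB site (4.51% of all windows) was matched once in Nr4a1 and once in Nab1. The full cAMP response element contains its core, so those searches overlap. A match is a string of letters, not a site shown to be bound.

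**Figure D1:**
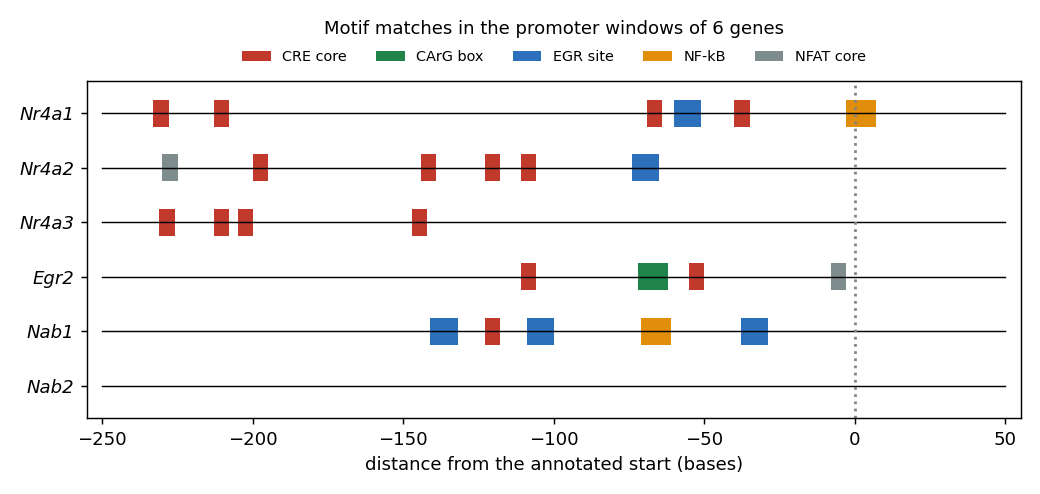
Motif matches in the 300-base promoter windows of 6 genes, by distance in bases from the annotated start (dotted line). Each bar is 1 match on either strand, and the rows of Nr4a1, Nr4a2 and Nr4a3 each hold 4 matches to the cAMP response element core (CRE core).

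In the NR4A group, Nr4a1 was by far the most expressed gene and lay about 4 times as high in CCR7loCD137hi. The CCR7loCD137hi libraries agreed closely, and the CCR7hiCD137lo libraries differed from each other by 0.312 on the log2 scale. Nr4a2 and Nr4a3 were low in both populations, and what they had came mostly from 1 CCR7loCD137hi library. Levels here are FPKM, fragment counts scaled by transcript length and library size, so they can be compared between genes. Differences are log2(FPKM + 1) in CCR7loCD137hi minus CCR7hiCD137lo, so a positive value means higher in CCR7loCD137hi, and they understate the change of genes near or below 1 FPKM.

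Nr4a1 (NUR77, mm10 chromosome 15, 101266846 to 101274794, 7 exons) stood at 30.6 and 29.7 FPKM in CCR7loCD137hi replicates 1 and 2, against 8.83 and 6.92 FPKM in CCR7hiCD137lo replicates 1 and 2. The populations did not overlap, and the means were 30.1 ± 0.705 and 7.87 ± 1.35 FPKM (SD, n = 2 each), a ratio of 3.83. The log2 difference was 1.82 (SE 0.160, 95% interval 1.39 to 2.25), larger in absolute size than that of 98.7% of the genes tested. It did not pass the threshold of 0.05 over all genes (limma, adjusted p = 0.116, unadjusted p = 0.000168). The levels rest on an estimated 812 and 426 fragments in CCR7loCD137hi and 414 and 205 in CCR7hiCD137lo. Their counting intervals, 28.6 to 32.8 and 26.9 to 32.6 FPKM in CCR7loCD137hi and 7.99 to 9.72 and 6.01 to 7.95 FPKM in CCR7hiCD137lo, do not meet between the populations. With any single library left out the log2 difference stayed between 1.66 and 1.98.

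Nr4a2 (NURR1, chromosome 2, 57107226 to 57124003) was at 5.04 and 1.45 FPKM in CCR7loCD137hi, against 0.702 and 0.326 FPKM in CCR7hiCD137lo. The populations did not overlap, but the CCR7loCD137hi libraries differed from each other by 1.299 on the log2 scale, close to the difference between the populations of 1.36 (SE 0.492, limma adjusted p = 0.613). Without CCR7loCD137hi replicate 1 that difference was 0.71, and without CCR7loCD137hi replicate 2 it was 2.01. Nr4a3 (NOR1, chromosome 4, 48051248 to 48083352) was at 5.46 and 0.282 FPKM in CCR7loCD137hi, against 0.518 and 0.502 FPKM in CCR7hiCD137lo. One CCR7loCD137hi library was thus the highest of the 4 and the other the lowest. The log2 difference of Nr4a3 was 0.93 (SE 0.804, 95% interval -1.20 to 3.06, limma adjusted p = 0.811), and it was -0.24 without CCR7loCD137hi replicate 1 and 2.10 without CCR7loCD137hi replicate 2. On a transcript of 5720 bases, the Nr4a3 level rests on an estimated 10 fragments in the lowest library and 350 in the highest. The counting intervals on that length are 0.138 to 0.528 and 4.90 to 6.06 FPKM. The Nr4a3 entry ends 3095 bases short of the RefSeq gene, so that reads beyond it would not be in these values. In the transcript used, 3093 bases lie after the stop codon. If the entry is shorter than that transcript, these fragment numbers are too high and the intervals too narrow. Of the summed FPKM of the 3 NR4A genes, Nr4a1 made up 74.5% and 94.5% in CCR7loCD137hi and 87.9% and 89.3% in CCR7hiCD137lo. The sum itself was 41.1 and 31.4 FPKM in CCR7loCD137hi and 10.0 and 7.74 FPKM in CCR7hiCD137lo.

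CCR7loCD137hi replicate 1, the library high in Nr4a2 and Nr4a3, was also the highest of the 4 in the summed markers of B cells and of CD8 T and NK cells and in Foxp3, the lineage factor of regulatory T cells. Myeloid markers, and erythroid and platelet markers, summed higher in CCR7loCD137hi replicate 2. Foxp3 was at 47.9 and 11.0 FPKM in CCR7loCD137hi, against 0.853 and 0.181 FPKM in CCR7hiCD137lo. All 7 B cell markers were above 0 in CCR7loCD137hi replicate 1, summing to 5.30 FPKM, against 4 of 7 and 0.571 FPKM in CCR7loCD137hi replicate 2. In the CCR7hiCD137lo libraries 2 of the 7 were above 0 in each, summing to 0.0917 and 0.145 FPKM, with Ms4a1 and Pax5 at 0. Markers of CD8 T and NK cells summed to 41.3 and 33.3 FPKM in CCR7loCD137hi and 12.1 and 21.8 FPKM in CCR7hiCD137lo, most of it Eomes, which Th1 cells can also express. Among them Cd8a was at 3.68 and 0.218 FPKM in CCR7loCD137hi and at 0 and 0.0265 FPKM in CCR7hiCD137lo. Cd8b1 overlapped between the populations, at 8.48 and 3.78 FPKM in CCR7loCD137hi and 2.63 and 4.56 FPKM in CCR7hiCD137lo. The part of such other cells in the levels of Nr4a2 and Nr4a3 was not tested. In such bulk libraries fewer cells of a type and less RNA per cell cannot be told apart.

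**Figure D2:**
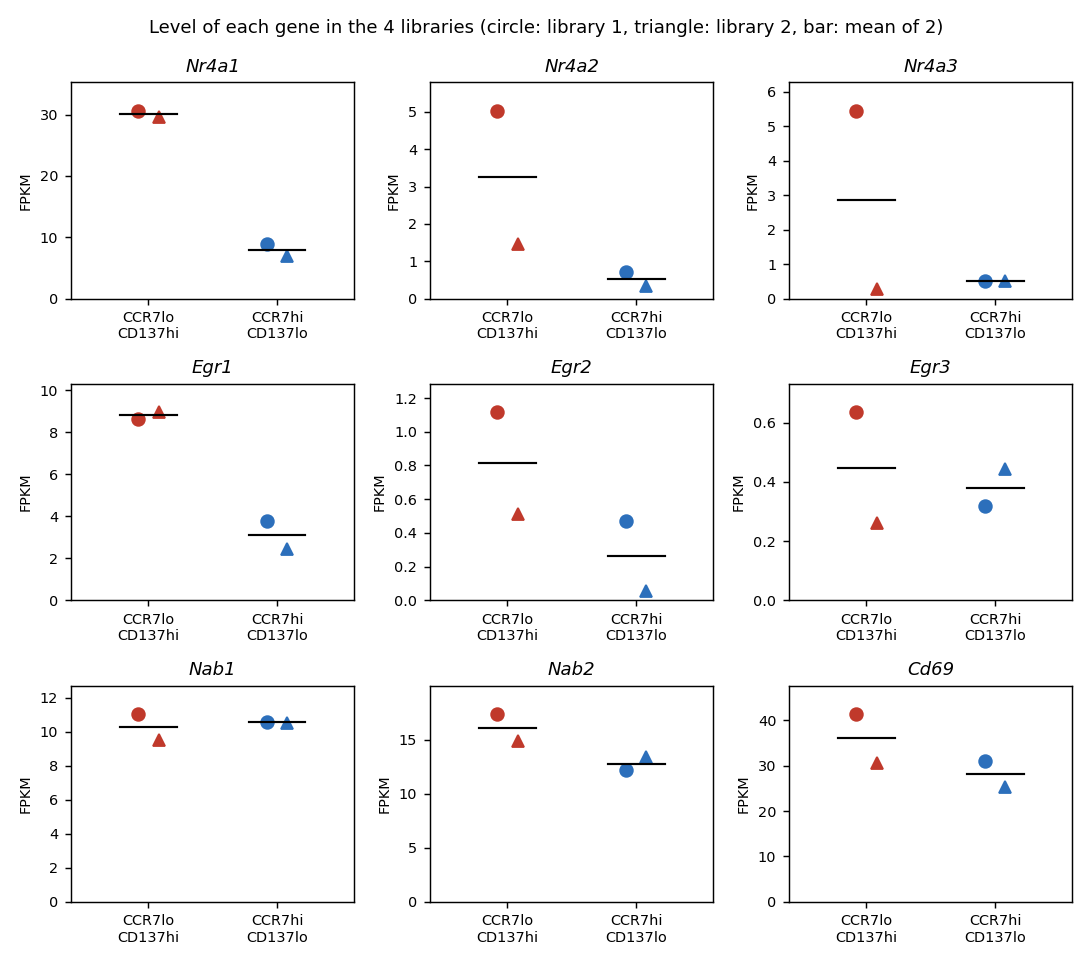
FPKM of each of the 9 genes in the 4 libraries, with CCR7loCD137hi in red and CCR7hiCD137lo in blue, circles for replicate 1, triangles for replicate 2 and a bar at the mean of 2. Nr4a1 and Egr1 stand apart by population, with close replicates in CCR7loCD137hi, whereas Nr4a3 is high only in CCR7loCD137hi replicate 1, at 5.46 FPKM.

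Of the EGR genes, Egr1 lay near 3 times as high in CCR7loCD137hi, while Egr2 and Egr3 were below or near 1 FPKM in every library. Egr1 (chromosome 18, 34861207 to 34864956, 3 exons), the founding member, was at 8.66 and 8.97 FPKM in CCR7loCD137hi, against 3.77 and 2.46 FPKM in CCR7hiCD137lo. The populations did not overlap and the means were 8.81 ± 0.216 and 3.12 ± 0.931 FPKM (SD, n = 2 each), a ratio of 2.83. The log2 difference of Egr1 was 1.27 (SE 0.211, 95% interval 0.71 to 1.83, limma adjusted p = 0.337, unadjusted p = 0.00253), and with any single library left out it ran from 1.04 to 1.504. The ratio of the Nr4a1 to the Egr1 level was 3.54 and 3.31 in CCR7loCD137hi and 2.34 and 2.81 in CCR7hiCD137lo. In a two-sided exact permutation test of that ratio p was 0.333, the smallest that 2 against 2 libraries can give.

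Egr2 (chromosome 10, 67537869 to 67542188), which with Egr3 restrains T cell responses, was at 1.12 and 0.514 FPKM in CCR7loCD137hi, against 0.473 and 0.0555 FPKM in CCR7hiCD137lo. The populations do not overlap, but these levels correspond to an estimated 36 and 9 fragments in CCR7loCD137hi and 27 and 2 in CCR7hiCD137lo. The counting intervals of CCR7loCD137hi replicate 2 (0.235 to 0.977 FPKM) and CCR7hiCD137lo replicate 1 (0.312 to 0.688 FPKM) overlap, so these libraries could not be told apart at this depth. Egr3 (chromosome 14, 70077445 to 70080157) was at 0.636 and 0.260 FPKM in CCR7loCD137hi, against 0.319 and 0.443 FPKM in CCR7hiCD137lo. The populations overlap, and the levels correspond to an estimated 9 and 2 fragments in CCR7loCD137hi and 8 and 7 in CCR7hiCD137lo, so that no difference in Egr3 was detectable at this depth. The Egr3 entry ends 2456 bases short of the RefSeq gene, and reads beyond it would not be in these values. Both genes had a mean under the minimum of 1 FPKM for testing. With no such minimum their log2 differences were 0.52 and 0.06 (limma adjusted p = 0.685 and 0.935).

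The NAB corepressor genes were expressed above the EGR genes and differed little between the populations. Nab1 (chromosome 1, 52455849 to 52500448) was at 11.1 and 9.49 FPKM in CCR7loCD137hi, against 10.6 and 10.5 FPKM in CCR7hiCD137lo, with the CCR7hiCD137lo libraries between the others. Its log2 difference of -0.04 has a 95% interval of -0.42 to 0.34 (limma adjusted p = 0.963), and the sign turned to 0.06 without CCR7loCD137hi replicate 2. Nab2 (chromosome 10, 127660918 to 127666703) was at 17.4 and 14.8 FPKM in CCR7loCD137hi, against 12.2 and 13.4 FPKM in CCR7hiCD137lo. The populations do not overlap, with means of 16.1 ± 1.80 and 12.8 ± 0.886 FPKM (SD, n = 2 each). The log2 difference of Nab2 was 0.31 (SE 0.148, 95% interval -0.08 to 0.70, limma adjusted p = 0.689). Nab2 shares 40 exonic bases at its end with Stat6 on the other strand, which was at 47.4 and 53.3 FPKM in CCR7loCD137hi and 43.9 and 49.5 FPKM in CCR7hiCD137lo. It also shares 864 exonic bases with the antisense gene Gm16229, and the sources used here do not say whether strand was used in counting, so reads of these genes cannot be told apart there.

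The corepressor genes outweighed the EGR genes by less in CCR7loCD137hi. Nab1 and Nab2 together were at 28.4 and 24.3 FPKM in CCR7loCD137hi and 22.7 and 23.9 FPKM in CCR7hiCD137lo. The 3 EGR genes together were at 10.4 and 9.74 FPKM in CCR7loCD137hi and 4.57 and 2.96 FPKM in CCR7hiCD137lo. The NAB level was thus 2.73 and 2.50 times the EGR level in CCR7loCD137hi, and 4.98 and 8.10 times the EGR level in CCR7hiCD137lo (two-sided exact permutation p = 0.333, the smallest possible). Egr1 supplied 83.2% and 92.0% of the EGR sum in CCR7loCD137hi and 82.7% and 83.1% in CCR7hiCD137lo.

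Cd69, the most expressed of the 9 genes by mean, had overlapping levels in the populations. Cd69 (chromosome 6, 129267325 to 129275369, 5 exons) was at 41.4 and 30.5 FPKM in CCR7loCD137hi, against 30.9 and 25.3 FPKM in CCR7hiCD137lo. CCR7loCD137hi replicate 2 lay just under CCR7hiCD137lo replicate 1, and the means were 36.0 ± 7.71 and 28.1 ± 3.96 FPKM (SD, n = 2 each). The log2 difference of Cd69 was 0.34 (SE 0.205, 95% interval -0.21 to 0.88, limma adjusted p = 0.747), so that a doubling of FPKM + 1, a log2 difference of 1, lies outside its interval. The level of Nr4a1 was 0.740 and 0.971 times that of Cd69 in CCR7loCD137hi and 0.285 and 0.273 times that of Cd69 in CCR7hiCD137lo (two-sided exact permutation p = 0.333, the smallest possible).

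**Figure D3:**
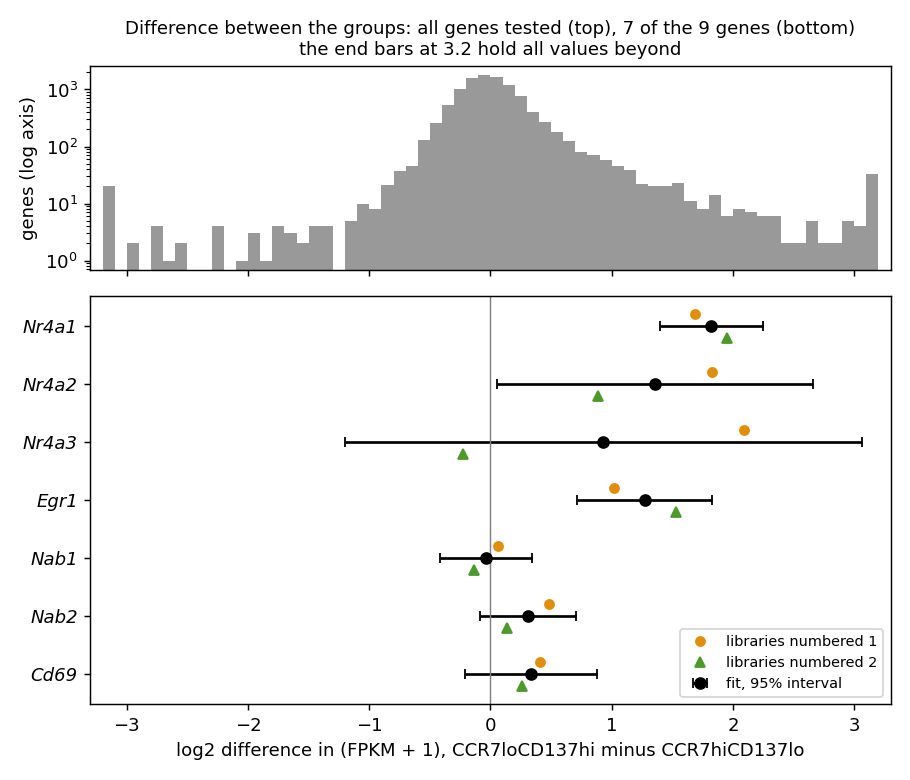
Log2 difference in (FPKM + 1), CCR7loCD137hi minus CCR7hiCD137lo, for the 10496 genes tested (top, log count axis, values beyond 3.2 in the end bars) and for the 7 of the 9 genes above the minimum (bottom). Black points are fitted values with 95% intervals, and coloured points are the differences between libraries of the same number, which for Nr4a3 and Nab1 lie on opposite sides of 0.

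Over the whole set, 5 of the 9 genes (Nr4a1, Nr4a2, Egr1, Egr2 and Nab2) were higher in CCR7loCD137hi without overlap, and 0 were lower without overlap. Over all 15496 genes above 0 in any library, 18.7% were higher and 17.3% lower in this way. Among the 10496 genes tested it was 16.6% and 21.5%, and 4 of the 7 members tested were higher. Of the 7 tested, a ratio of means of at least 2 without overlap was found for Nr4a1, Nr4a2 and Egr1, against 3.26% of all genes tested. Egr2, which was not tested, had a ratio of 3.09 without overlap. Nr4a2 and Nr4a3 passed the minimum of 1 FPKM only through CCR7loCD137hi, so every count over the 7 tested members is a description and no support for a difference. Limma called 0 of these 7 genes, and 6 of all genes tested (0.0572%, with 0.0476% higher and 0.00953% lower). At an unadjusted p under 0.05 there were 3 of the 7 (Nr4a1, Nr4a2 and Egr1, all higher), against 8.13% of all genes tested, with 4.64% higher and 3.49% lower. In order of mean FPKM the genes ran Cd69, Nr4a1, Nab2, Nab1, Egr1, Nr4a2, Nr4a3, Egr2 and Egr3. In CCR7loCD137hi replicate 2 Nr4a1 and Cd69, at 29.7 and 30.5 FPKM, had overlapping counting intervals, and so did Nab1 and Egr1, at 9.49 and 8.97 FPKM. Those of Nr4a2 and Nr4a3 overlapped in every library but CCR7loCD137hi replicate 2, and those of Egr2 and Egr3 in every library. Nab2 and Nab1 had overlapping intervals in CCR7hiCD137lo replicate 1, and Nr4a3 and Egr2 in that library and in CCR7loCD137hi replicate 2. The order of these genes is thus that of the means alone.

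**Figure D4:**
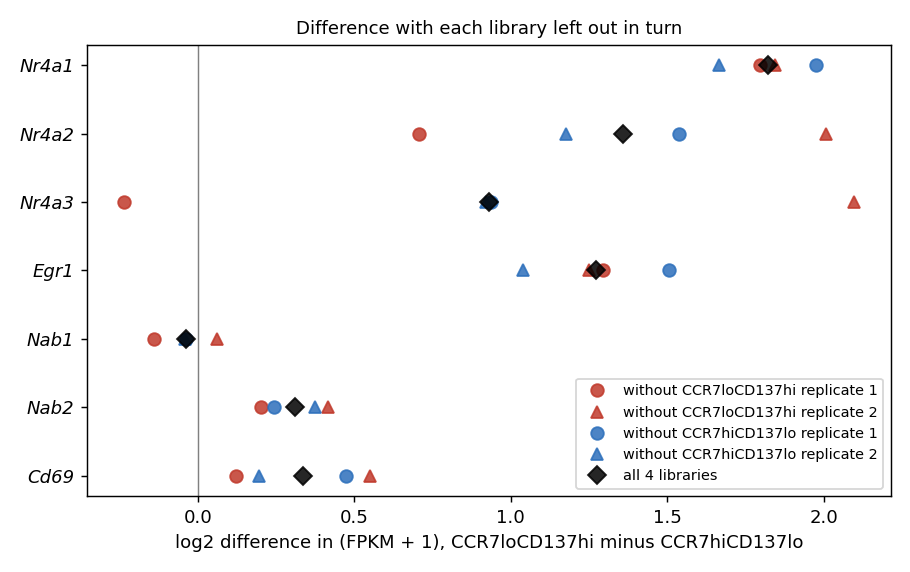
Log2 difference in (FPKM + 1), CCR7loCD137hi minus CCR7hiCD137lo, with all 4 libraries (black diamonds) and with each library left out (red, a CCR7loCD137hi library; blue, a CCR7hiCD137lo library). Nr4a1 stays between 1.66 and 1.98, and Nr4a3 moves between -0.24 and 2.10 with the CCR7loCD137hi libraries.

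Among other genes that antigen receptors induce, 17 of the 27 above 0 in any library were higher in CCR7loCD137hi without overlap and 2 were lower, against 18.7% and 17.3% of all genes above 0, and limma called 0 of them. Of the 28 listed genes 24 were tested. Of these 16 were higher and 1, the receptor-signal inhibitor gene Cd5, lower without overlap, against 16.6% and 21.5% of all genes tested. The median log2 difference of the 24 was 0.88, against -0.01 over all genes tested. At an unadjusted limma p under 0.05, 14 were higher and 0 lower, against 4.64% and 3.49% of all genes tested. Of those tested, 3 (Xcl1, Ccl3 and Ccl4) passed the minimum only through CCR7loCD137hi, so their means had to differ, though Ccl4 overlapped between the populations. The median and the counts over the 24 include these 3, and are a description and no support for a difference. Among the 21 with both means at 1 FPKM or more, 14 were higher and 1 lower without overlap, with no share over all genes given for that subset. Fosl2, an AP-1 subunit gene, was at 12.3 and 11.5 FPKM in CCR7loCD137hi, against 1.68 and 2.27 FPKM in CCR7hiCD137lo (limma adjusted p = 0.0953). Ier3, an early response gene, was at 15.5 and 32.97 FPKM in CCR7loCD137hi, against 1.69 and 11.2 FPKM in CCR7hiCD137lo. The most expressed members were Il2ra, the interleukin-2 receptor alpha chain gene, at 548.8 and 345.5 FPKM in CCR7loCD137hi and 537.9 and 518.4 FPKM in CCR7hiCD137lo, and Tnfrsf4 (OX40). Tnfrsf4 was at 164.1 and 178.2 FPKM in CCR7loCD137hi, against 74.1 and 117.1 FPKM in CCR7hiCD137lo. The chemokine genes Ccl3 and Ccl4, chosen after their values were seen, were, like Nr4a3, high in CCR7loCD137hi replicate 1 alone. Ccl4 was at 9.78 FPKM in CCR7loCD137hi replicate 1 and listed at 0 in replicate 2, against 0.106 and 0.168 FPKM in CCR7hiCD137lo, and Ccl3 was at 6.15 and 0.270 FPKM in CCR7loCD137hi, against 0.0826 and 0 FPKM in CCR7hiCD137lo. Egr4, the other EGR family gene, was listed at 0 in all 4 libraries.

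The next list holds genes linked to NR4A in T cells, without regard to the direction of the link. Of the 15 above 0, 11 were higher in CCR7loCD137hi without overlap and 0 lower, against the same 18.7% and 17.3%, and limma called 0. The 14 tested had a median log2 difference of 0.95, with 10 higher without overlap, against 16.6% of all genes tested. At an unadjusted limma p under 0.05, 7 were higher and 0 lower, against 4.64% and 3.49% of all genes tested. Of these, 4 (Foxp3, Tigit, Itgae and Il10) passed the minimum only through CCR7loCD137hi, so their means had to differ. Their log2 differences were 4.03, 2.93, 1.28 and 3.47. The median and the counts over the 14 include these 4, and are a description and no support for a difference. Of the other 10, 6 were higher without overlap, with no share over all genes given for that subset. Foxp3, 1 of the 4, has the values given above and its log2 difference of 4.03 an SE of 0.722 (limma adjusted p = 0.346). Il10, an anti-inflammatory cytokine gene, was at 22.004 and 10.3 FPKM in CCR7loCD137hi, against 0.658 and 0.278 FPKM in CCR7hiCD137lo. Ctla4, an inhibitory receptor gene, was at 138.7 and 70.0 FPKM in CCR7loCD137hi, against 37.5 and 23.5 FPKM in CCR7hiCD137lo. Runx3, a Th1 and cytotoxic lineage factor gene, was at 51.8 and 58.0 FPKM in CCR7loCD137hi, against 45.1 and 50.4 FPKM in CCR7hiCD137lo. Between the CCR7loCD137hi libraries, 8 of the 14 tested members, among them Foxp3, Il10 and Ctla4, stood higher in replicate 1, as Nr4a2 and Nr4a3 did, and 6, among them Runx3, stood higher in replicate 2.

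Genes linked to EGR2 and EGR3 were likewise listed without regard to the direction of the link. All 16 were above 0, and 9 were higher in CCR7loCD137hi without overlap and 0 lower, against 18.7% and 17.3%, with 0 called by limma. The 15 tested had a median log2 difference of 0.24, with 8 higher without overlap, against 16.6% of all genes tested, and 6 higher and 0 lower at an unadjusted p under 0.05, against 4.64% and 3.49%. Of these, 2 (Rnf128 and Ikzf2) passed the minimum only through CCR7loCD137hi, so their means had to differ. The median and the counts over the 15 include these 2, and are a description and no support for a difference. Of the other 13, 6 were higher without overlap, with no share over all genes given for that subset. Fasl, the death ligand gene, was at 9.31 and 11.3 FPKM in CCR7loCD137hi, against 1.01 and 1.27 FPKM in CCR7hiCD137lo (limma adjusted p = 0.0876). Ikzf2, which encodes Helios, was at 12.9 and 5.94 FPKM in CCR7loCD137hi, against 0.204 and 0.399 FPKM in CCR7hiCD137lo. Cdkn1a, the p21 cell cycle inhibitor gene, was at 143.2 and 188.6 FPKM in CCR7loCD137hi, against 39.1 and 84.1 FPKM in CCR7hiCD137lo. Socs1, a cytokine signal inhibitor gene, was at 68.9 and 85.2 FPKM in CCR7loCD137hi, against 63.3 and 92.2 FPKM in CCR7hiCD137lo. Of the anergy ubiquitin ligase genes, chosen after their values were seen, Rnf128 was at 1.45 and 2.79 FPKM in CCR7loCD137hi, against 0.304 and 0.783 FPKM in CCR7hiCD137lo, without overlap (limma adjusted p = 0.585). Cblb and Itch overlapped between the populations, at 15.4 and 18.4 FPKM for Cblb in CCR7loCD137hi against 18.4 and 18.8 FPKM in CCR7hiCD137lo.

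Genes of the pathway from the receptor to these promoters lay near the background. Of 22 tested genes for calcineurin, NFAT, MEF2, serum response factor, its cofactors, CREB proteins and signalling kinases, 3 were higher and 7 lower without overlap, against 16.6% and 21.5% of all genes tested, the median log2 difference was -0.11, and limma called 0, with 1 higher and 0 lower at an unadjusted p under 0.05. The exception in size was Crem, a factor of the cAMP response element, at 43.9 and 21.0 FPKM in CCR7loCD137hi, against 6.71 and 6.72 FPKM in CCR7hiCD137lo (log2 difference 2.03, SE 0.363, limma adjusted p = 0.346). Elk4, a cofactor of serum response factor, was at 5.83 and 8.14 FPKM in CCR7loCD137hi, against 9.46 and 9.15 FPKM in CCR7hiCD137lo. Ppp3cc, a calcineurin catalytic subunit gene, was at 40.0 and 72.3 FPKM in CCR7loCD137hi, against 33.8 and 50.4 FPKM in CCR7hiCD137lo. Among 11 tested partners of CD69, 2 were higher and 2 lower without overlap, against the same 16.6% and 21.5%, with a median log2 difference of -0.09 and 0 called by limma (1 higher and 1 lower at an unadjusted p under 0.05). The higher ones were S1pr4, at 26.1 and 27.7 FPKM in CCR7loCD137hi against 21.4 and 20.9 FPKM in CCR7hiCD137lo, and the amino acid transporter chain gene Slc3a2, at 53.2 and 53.7 FPKM in CCR7loCD137hi against 45.3 and 36.1 FPKM in CCR7hiCD137lo. One of the lower ones was the myosin light chain gene Myl12b, at 284.5 and 300.5 FPKM in CCR7loCD137hi against 348.6 and 375.5 FPKM in CCR7hiCD137lo. S1pr1, the receptor that CD69 binds, was named for that role and was at 9.25 and 15.3 FPKM in CCR7loCD137hi, against 7.31 and 13.7 FPKM in CCR7hiCD137lo, higher in replicate 2 of both populations.

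**Figure D5:**
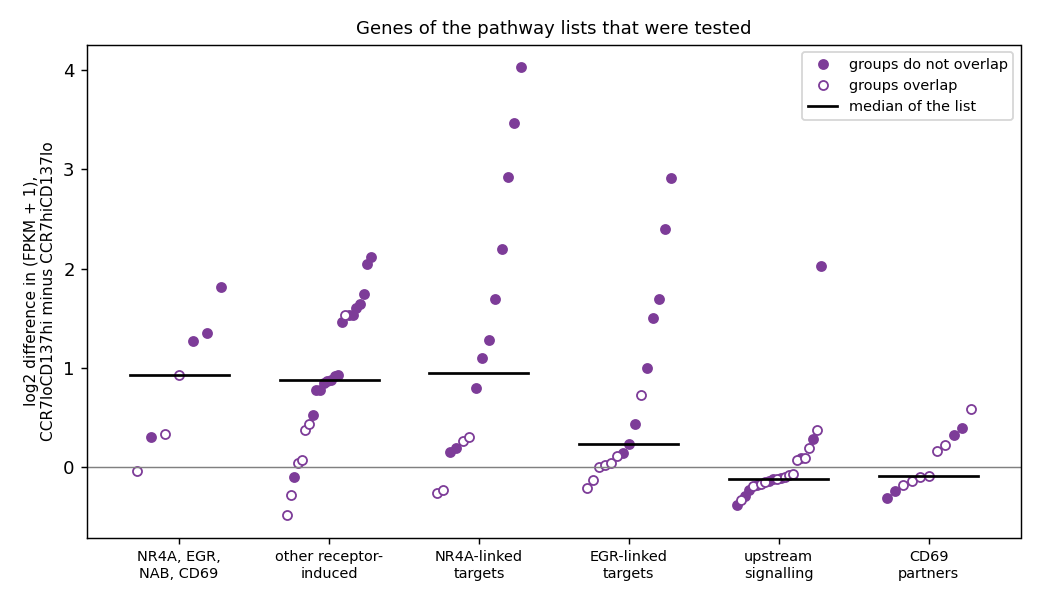
Log2 difference in (FPKM + 1), CCR7loCD137hi minus CCR7hiCD137lo, of each tested gene in the pathway lists, with filled points where the libraries of the populations do not overlap and a bar at the list's median. The other receptor-induced genes and the NR4A-linked genes have medians of 0.88 and 0.95, and the upstream signalling genes -0.11. In these lists 3 of 24, 4 of 14 and 0 of 22 genes passed the minimum only through CCR7loCD137hi, so the medians are a description and no support for a difference.

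The genes most like Nr4a1 in pattern, by distance between centred log2(FPKM + 1) values over the 4 libraries, were Atp8b4, a phospholipid flippase gene, Gadd45b, a stress and signal-induced gene, and Mcf2l, a nucleotide exchange factor gene, at distances of 0.259, 0.389 and 0.415. Only 7 of the other genes tested (0.0667%) lay within 0.5 of Nr4a1, and Egr1 was the 17th closest at 0.563. Atp8b4 was at 8.09 and 6.96 FPKM in CCR7loCD137hi, against 1.33 and 1.37 FPKM in CCR7hiCD137lo. Gadd45b was at 19.8 and 13.7 FPKM in CCR7loCD137hi, against 4.19 and 4.12 FPKM in CCR7hiCD137lo, and Mcf2l at 2.98 and 3.90 FPKM in CCR7loCD137hi against 0.138 and 0.266 FPKM in CCR7hiCD137lo. For Cd69 and Nab2, which vary little, 2691 and 5049 genes lay within 0.5, so nearness says little. The closest were P2ry10, Aprt and Txndc11 to Cd69, at 0.0538, 0.0538 and 0.0644, and Gsr, 2010109K11Rik and Sec11c to Nab2, at 0.0217, 0.0318 and 0.0331.

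In structure Nr4a1, the EGR genes, Nab2 and Cd69 have transcripts of 7 or fewer exons, a property of 40.3% of the 9125 coding genes tested. For the 9 genes the coding transcript with ends closest to the entry was taken, and for all genes tested the longest coding transcript. Adenylate- and uridylate-rich pentamers, ATTTA in DNA letters, which mark many short-lived messages, occur 3 times after the stop codon of Nr4a1 in 543 bases and 2 times in 936 bases of Cd69. The median over 8716 tested genes with at least 100 bases there is 2 in a median of 1174 bases. Per kb the median is 1.37, against 5.52 in Nr4a1, 3.99 in Nab2, 3.12 in Nab1, 2.50 in Egr2 and 2.26 in Nr4a2. Cd69 has 2.14 per kb, Egr1 1.68, Nr4a3 1.62 and Egr3 0. The longer element TTATTTATT was found in Nab2 alone among the 9 genes, against 8.25% of those 8716 genes, and is shown as the single match. For Egr3 only 50 bases after the stop codon were searched, so absence of the element from the rest of Egr3 is not shown. Of the element's 9 bases in Nab2, 2 lie in the stretch that Nab2 shares with Stat6. Capitals mark the element.
Nab2, chr10:127660948-127660972, minus strand: acagtagaTTATTTATTttgttatt

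The libraries followed the sort and held CD4 T cell RNA. Tnfrsf9 was at 158.2 and 183.8 FPKM in CCR7loCD137hi, against 0.961 and 6.25 FPKM in CCR7hiCD137lo. Ccr7 was at 39.6 and 38.2 FPKM in CCR7loCD137hi, against 93.4 and 118.4 FPKM in CCR7hiCD137lo. All 8 CD4 T cell markers in the tables were above 0 in every library, with sums of 1849 and 2105 FPKM in CCR7loCD137hi and 1829 and 1935 FPKM in CCR7hiCD137lo. Of 12 myeloid markers measured, 5 were at 0 everywhere, and the sum was 2.81 and 3.78 FPKM in CCR7loCD137hi and 1.59 and 0.727 FPKM in CCR7hiCD137lo. Erythroid and platelet markers summed to 1.27 and 2.29 FPKM in CCR7loCD137hi and 0.306 and 0.536 FPKM in CCR7hiCD137lo. Estimated depth was 1.16e+07 and 6.31e+06 fragments in CCR7loCD137hi and 2.06e+07 and 1.3e+07 in CCR7hiCD137lo, so at equal levels the CCR7loCD137hi values carry the larger counting error.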

How the data were processed

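RNA of 4 libraries (2 CCR7loCD137hi, 2 CCR7hiCD137lo) was extracted with TRIzol and prepared with a TruSeq Stranded mRNA kit, per the labels' protocols. The authors deposited 1 table of FPKM values per library. The column layout is that of Cufflinks gene output, per the file headers. The submitters' processing notes list build mm10 and the tools TopHat 1.3.2, Bowtie 0.12.8 and Cufflinks 2.0.2 without saying what each did. The sources used here name no annotation or filter and do not say whether strand was used.

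For 240 symbols with several entries the one with the highest mean was used. Genes with a mean of at least 1 FPKM entered a two-sided limma test (version 3.58.1, R 4.3.3) of log2(FPKM + 1) that let variance follow level, and p-values were adjusted by Benjamini-Hochberg over 10496 genes, checked on simulated data. Residual degrees of freedom were 2 and prior ones 2.54. Depth was estimated from the whole-read steps of values under 0.3 FPKM. Relative to CCR7hiCD137lo replicate 1 it was 0.564 and 0.306 in CCR7loCD137hi and 0.631 in CCR7hiCD137lo replicate 2, where 58.6%, 56.8% and 57.6% of ratios were whole within 0.002 in natural log. Absolute depth and the fragment numbers assume fragments of 200 bases and are approximate (for Egr2 and Egr3 the length was adjusted to give whole fragments), and 3 fragments on 1 kb stand at 0.258, 0.475, 0.146 and 0.231 FPKM in CCR7loCD137hi replicates 1 and 2 and CCR7hiCD137lo replicates 1 and 2. Counting intervals are exact 95% Poisson intervals and, like these floors, cover counting error only.

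The genes and lists were chosen with earlier results of these data known. All 9 genes are named. In each list the 2 most expressed genes and the 2 with the largest non-overlapping difference are named, except that some items are not reported here, and others are said to be chosen otherwise. Alternatives covered the pseudocount, the minimum level, 2 scalings, the trend, summing the entries of a symbol, each library left out and a replicate block. Promoters and gene ends came from RefSeq on GRCm38.p6, transcripts from GENCODE M21, which shares that build. Promoters of Egr1, Egr3 and Cd69 are not printed. Python 3.11.15 served for tables and plots.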

Additional observations from a re-analysis of the deposited data

How the results depend on the processing

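No alternative turned the sign for Nr4a1, Nr4a2, Egr1, Nab2 or Cd69. With 1 library left out Nr4a3 ran from -0.236 (without CCR7loCD137hi replicate 1) to 2.10, and Nab1 from -0.139 to 0.0609 (without CCR7loCD137hi replicate 2). Fits with a library left out assume that the lone library of a population varies like the other population. In them limma called 12 to 30 of all genes, 0 of the 7 tested members, and 0 to 1 of the upstream signalling and of the NR4A-linked genes, while the tested genes without overlap numbered 4 to 7, the last without CCR7loCD137hi replicate 2, where fewer libraries can overlap. Over all genes the count was 6, against 1 with no minimum level, 2 with quantile normalization, 3 after rescaling to the same sum without short RNA genes and 2 without a variance trend, and the cause was not tested. The adjusted p of Nr4a1 ran from 0.0445 to 0.349 over 12 alternatives and that of Egr1 from 0.0840 to 0.642.

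Libraries share only a number, not a stated mouse or day, and the deviations of those with the same number correlate at 0.214 over genes. With the replicate block 42 genes were called, among them Nr4a1 (log2 difference 1.82, adjusted p = 0.0445) as 1 of the 9 genes, and 2 other receptor-induced, 1 EGR-linked and 4 NR4A-linked genes. Depth limits Egr2 and Egr3 most, at 2 to 36 and 2 to 9 fragments.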

Other observations

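NR4A1 and NR4A2 can bind DNA together with retinoid X receptors, whose genes are outside the lists above and were picked for that role. Rxra was at 4.46 and 4.21 FPKM in CCR7loCD137hi, against 2.96 and 3.27 FPKM in CCR7hiCD137lo, without overlap (limma adjusted p = 0.656). Rxrb was at 19.1 and 21.9 FPKM in CCR7loCD137hi, against 18.6 and 19.9 FPKM in CCR7hiCD137lo, with overlap. Rxrg was listed at 0 in all 4 libraries.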
